A study of Mus musculus with 5 samples.

Results

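The regions described here were the widest distal DNaseI hypersensitive sites (DHSs) of the hemangioblast (HB). A DHS is a stretch of DNA that the nuclease DNase I can reach in chromatin. Of the 24729 DHSs in the HB list, 12990 were distal, with their middle over 2 kb from every protein-coding transcription start site (TSS), and the 1590 members were chosen by their width from these distal sites, at or above the 90th percentile of 1200 bp. They made up 12.2% of the distal HB sites and 21.5% of the bases those sites covered.

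DNaseI-seq had been carried out at 5 stages on the way from mouse embryonic stem cells (ESCs), of a 129 strain, to blood in culture. Cells of every stage came from an ESC line that carries GFP under control of the Brachyury gene (Bry:GFP), so the reporter was present in all groups. Cells positive for Bry:GFP were sorted into mesoderm (MES) without Flk1 and HB with Flk1. Hemogenic endothelium (HE) was sorted as CD41- cells with Tie2 and cKit, hematopoietic progenitors (HP) by CD41 and macrophages (MAC) by CD11b. Each stage had 1 list of sites with no read depth, and the label of the MAC list names 2 replicates together, so no spread between replicates could be measured. No test was run. The 95% Wilson intervals given with shares cover counting error only.

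The lists held 21949 (MES), 33305 (HE), 17734 (HP) and 37456 (MAC) sites. All 8 genes used to check the HB label, T, Kdr, Mixl1, Pdgfra, Etv2, Tal1, Lmo2 and Gata2, had an HB site within 1 kb of a TSS, against 7 in MES, 7 in HE, 5 in HP and 4 in MAC. Of the genes that mark other cells, 6 of 20 macrophage, 11 of 17 neural, 6 of 14 endoderm and 13 of 18 pluripotency genes had such an HB site, against 57.6% of all protein-coding genes.

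The hemangioblast is a mesodermal cell with the capacity to form blood, endothelium and smooth muscle. Its Flk1 receptor, the product of Kdr, receives VEGF signals, and factors such as ETV2, GATA2, TAL1 and LMO2 direct the step toward blood and vessel. Distal DHSs include enhancers, where such factors bind short sequence motifs, and insulator sites bound by CTCF. Open chromatin away from coding genes is also found at the starts of non-coding genes, among them the short tRNA genes that RNA polymerase III reads.

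Sequences of 7 members illustrate what the group holds. Each was read from the plus strand of GRCm38, the assembly also known as mm10. In the first 6, the 300 bases at the middle of the site are given, and capitals mark matches on either strand to short motifs. These are AGATAA for the GATA factors, GGAATG for TEAD, the E-boxes CAGATG and CAGCTG for bHLH factors, TGTGGT for RUNX and GGTGTGA for T-box factors. The sites nearest to Mesp1, Kdr and Gata2 are shown because these genes act in early mesoderm and blood, the site nearest to Tbx2 because it was the widest without a counterpart at any other stage, the site nearest to Smad6 because Smad6 is an inhibitor of BMP signals, and the site nearest to Gm2237 because it was the widest of all. In the last, from the member nearest to H4c8, capitals mark the whole of a tRNA-Ser gene with 30 bases on either side.
Mesp1 site, chr7:79798059-79798358: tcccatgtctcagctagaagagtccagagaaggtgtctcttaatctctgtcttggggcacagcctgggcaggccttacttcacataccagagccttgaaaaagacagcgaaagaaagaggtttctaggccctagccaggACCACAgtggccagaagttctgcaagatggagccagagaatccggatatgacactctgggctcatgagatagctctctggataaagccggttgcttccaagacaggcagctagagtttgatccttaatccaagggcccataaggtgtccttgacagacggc
Kdr site, chr5:76008500-76008799: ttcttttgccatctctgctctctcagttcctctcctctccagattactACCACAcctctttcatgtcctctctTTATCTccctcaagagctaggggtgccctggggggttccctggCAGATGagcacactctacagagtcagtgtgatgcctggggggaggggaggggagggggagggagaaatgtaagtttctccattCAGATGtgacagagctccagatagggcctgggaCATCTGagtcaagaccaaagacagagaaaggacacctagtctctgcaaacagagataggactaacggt
Gata2 site, chr6:88189930-88190229: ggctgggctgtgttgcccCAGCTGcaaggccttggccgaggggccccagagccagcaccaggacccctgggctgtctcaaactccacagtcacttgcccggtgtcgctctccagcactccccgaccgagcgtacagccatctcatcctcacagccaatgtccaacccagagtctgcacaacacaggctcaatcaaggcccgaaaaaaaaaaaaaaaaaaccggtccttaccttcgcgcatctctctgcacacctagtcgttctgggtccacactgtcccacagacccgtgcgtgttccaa
Tbx2 site, chr11:85734657-85734956: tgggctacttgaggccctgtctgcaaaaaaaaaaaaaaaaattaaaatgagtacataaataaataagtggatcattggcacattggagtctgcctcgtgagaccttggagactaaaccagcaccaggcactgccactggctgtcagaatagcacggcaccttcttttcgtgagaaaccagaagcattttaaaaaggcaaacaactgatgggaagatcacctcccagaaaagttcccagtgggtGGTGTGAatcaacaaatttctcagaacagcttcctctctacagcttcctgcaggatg
Smad6 site, chr9:64017851-64018150: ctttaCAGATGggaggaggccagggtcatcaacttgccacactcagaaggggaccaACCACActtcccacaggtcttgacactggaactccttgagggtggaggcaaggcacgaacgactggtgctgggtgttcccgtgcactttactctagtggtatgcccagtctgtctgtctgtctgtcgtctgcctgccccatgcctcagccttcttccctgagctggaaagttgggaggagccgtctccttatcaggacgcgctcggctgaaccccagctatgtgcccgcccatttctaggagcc
Gm2237 site, chr14:19417436-19417735: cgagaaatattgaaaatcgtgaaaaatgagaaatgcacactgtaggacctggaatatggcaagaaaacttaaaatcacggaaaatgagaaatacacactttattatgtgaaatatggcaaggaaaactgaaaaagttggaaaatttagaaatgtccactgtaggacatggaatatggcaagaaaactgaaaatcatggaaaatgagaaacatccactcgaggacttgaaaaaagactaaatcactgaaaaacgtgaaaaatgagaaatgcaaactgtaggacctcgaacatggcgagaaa
tRNA-Ser gene near H4c8, chr13:23518116-23518257: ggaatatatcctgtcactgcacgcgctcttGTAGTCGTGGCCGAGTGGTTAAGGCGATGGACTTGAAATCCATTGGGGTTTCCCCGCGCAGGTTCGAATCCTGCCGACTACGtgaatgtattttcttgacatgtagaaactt

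The middle of the Mesp1 site held 1 RUNX match and none of the other motifs. That of the Kdr site held 1 GATA match, 3 E-boxes and 1 RUNX match, whereas the Gata2 site, which lies in an exon of a predicted non-coding transcript, held 1 E-box. The Tbx2 site held 1 T-box match. A match is a description of letters, not of a bound factor.

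The threshold fell among many sites of one width, because all widths in the list were multiples of 100 bp. Just inside it, 593 sites measured 1200 bp, and just outside it 797 sites measured 1100 bp. The median member was 1300 bp wide, against 700 bp for the other 11400 distal sites, and the widest reached 3400 bp. HB sites within 2 kb of a TSS had a median width of 1200 bp, so that 51.6% of those 11739 sites would have met the same threshold.

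The question of the comparison with the other 4 stages was how far the wide distal sites of HB were already open before that stage or stayed open after it. The members were overlapped at other stages more often than distal HB sites at large. Here a site is called open at a stage where that list holds an overlapping site and absent where it holds none, which does not show that the chromatin was shut. With an overlap of at least 1 bp, MES had a site at 1408 of 1590 members, or 88.6% (interval 86.9 to 90.03), against 56.3% of all distal HB sites. HE overlapped 78.8% of members (76.7 to 80.7) against 49.4%. HP overlapped 59.2% (56.7 to 61.6) against 28.9%, and MAC overlapped 46.0% (43.6 to 48.5) against 25.6%. The stages stood in the order MES, HE, HP and MAC in both sets. With the longer lists cut to their 17734 widest sites, the length of the HP list, the order stayed in the members. MES then overlapped 84.9% of members, HE 63.2% and MAC 34.4%, beside the 59.2% of HP. At narrower distal HB sites HE, with 20.1%, fell below HP, with 24.7%. With the longer lists thinned at random to the same length the order turned in the members too, with 71.1% in MES, 40.8% in HE and 21.8% in MAC.

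A wide interval can meet another site by its length alone. The overlap was therefore also counted at the central 500 bp of each HB site, with at least 25% of that stretch in common. MES then overlapped 84.5% of members (82.6 to 86.2) against 55.5% of all distal HB sites, HE 76.2% against 48.6%, HP 55.3% against 28.2% and MAC 39.2% (36.8 to 41.6) against 23.7%. With this form 5.41% of members had no site at any other stage, against 25.4% of all distal HB sites, and 33.5% had one at all 4, against 12.2%.

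The overlap rose with width below the threshold too. When the distal HB sites were placed in 9 classes of width, the share overlapped by MES went from 34.5% in sites of 100 to 400 bp through 59.3% at 800 bp and 80.7% at 1100 bp to 88.6% in the members. For HP the same classes gave 16.3%, 26.0%, 44.2% and 59.2%. The plot of overlap by width shows both curves.

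**Figure D1:**
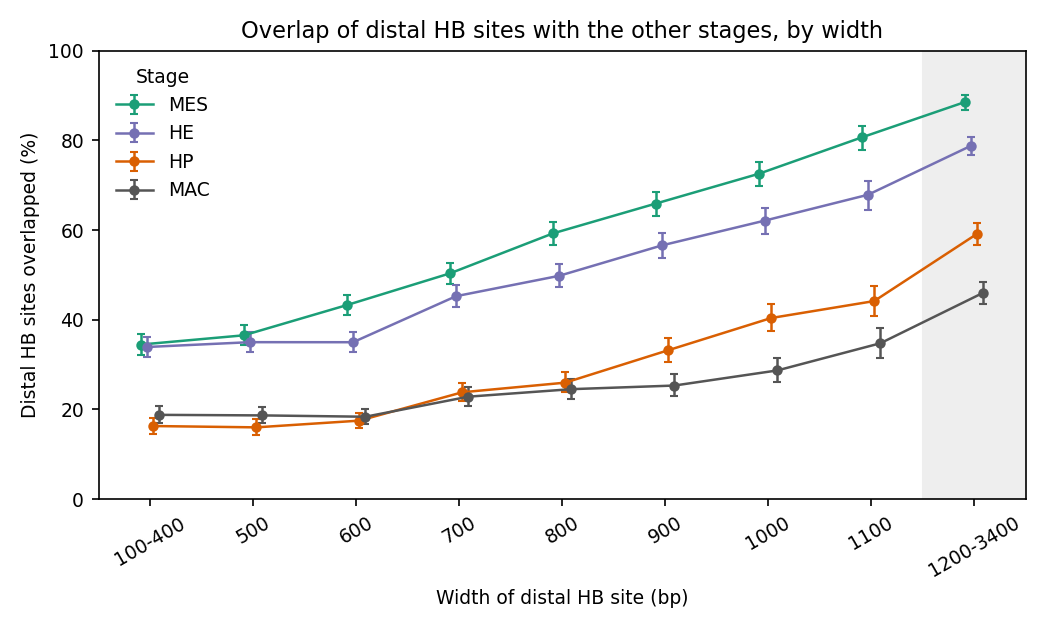
Share of distal HB sites (%) with an overlap of at least 1 bp at MES, HE, HP or MAC, in 9 classes of width in bp. Bars are 95% Wilson intervals and the shaded class holds the 1590 members, where MES reached 88.6%, HE 78.8%, HP 59.2% and MAC 46.0%.

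All 16 combinations of stages occurred among the members, but 4 of them held most sites. A site at all 5 stages was the most frequent combination, with 612 members or 38.5% (36.1 to 40.9), against 13.1% of all distal HB sites. With the lists cut to their widest sites, 29.1% of members and 3.11% of narrower sites had a site at all 4 other stages, and with the lists thinned at random 7.30% and 1.77%. Sites shared by HB, MES, HE and HP but not MAC counted 234 members (14.7% against 6.51%). Those shared with MES alone counted 224 (14.1% against 19.0%), and those shared with MES and HE 222 (14.0% against 9.52%). By contrast, 59 members, or 3.71% (2.89 to 4.76), had no site at any other stage, against 24.7% of all distal HB sites. This share was 6.92% against 44.9% of narrower sites with the lists cut to their widest sites, 9.31% against 38.3% with the thinned lists, and 9.50% against 31.5% when a site had to cover 50% of the HB site. Of the members, 47 were shared by HB and HE alone (2.96% against 8.63%) and 44 by HB, HE and HP (2.77%, interval 2.07 to 3.69, against 3.59%).

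**Figure D2:**
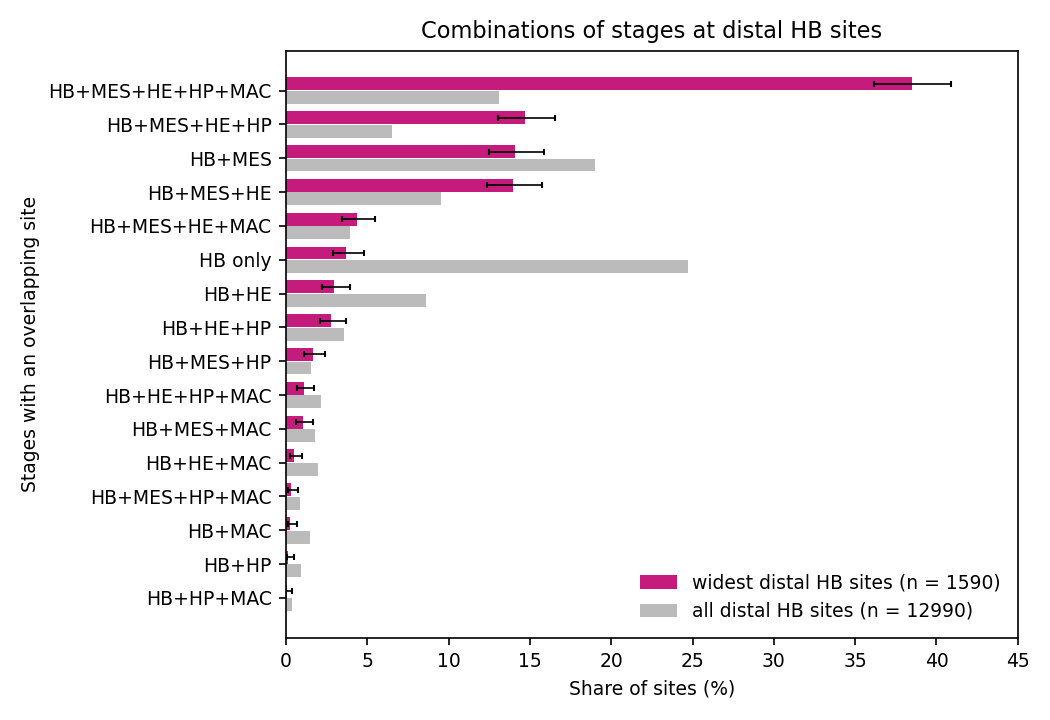
Share of sites (%) in each of the 16 combinations of stages, for the 1590 widest and all 12990 distal HB sites, with 95% Wilson intervals on the former. Sites at all 5 stages were 38.5% of the widest and 13.1% of all distal sites, whereas sites of HB only were 3.71% and 24.7%.

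Sites that overlapped a member tended to be wide in their own list. The median width of the widest overlapping MES site was 1000 bp, against 600 bp at narrower distal HB sites. In MES, 58.5% of the overlapped members (55.9 to 61.0) met a site at or above the 90th percentile of MES distal width, 1000 bp, compared with 6.32% of the narrower HB sites. The corresponding shares were 56.8% against 19.2% in HE, 47.6% against 7.98% in HP and 51.8% against 17.1% in MAC. For 232 members (14.6%, against 1.89% of all distal HB sites) a counterpart was among the widest distal sites of all 4 other stages. A further 439 members (27.6%, against 54.9%) had a counterpart at some stage that was among the widest at none, and the 59 of HB only had none.

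Members seldom met several sites of another stage, except the very widest. Of the 1087 members of 1200 to 1400 bp that MES overlapped, 1 met more than 1 MES site. Of the 18 members of 2200 bp or more, all met a MES site and 8 met at least 2, so that separate intervals in MES lay under 1 interval in HB. HE, whose distal sites were wider in general, met none of the 17 it overlapped with more than 1 site.

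The 12 widest members measured 2300 bp or more, and 4 of the 5 widest lay over 30 kb from the nearest protein-coding TSS. The widest, chr14:19415886-19419285, was 3400 bp in HB, 3500 bp in MES and HE and 3600 bp in HP and MAC. Of its bases, 82.9% are masked as repeats in the reference. The next, chr17:39843129-39846128, measured 3000 bp in every list, with 69.8% G and C in its middle. The third, chr9:124422601-124425500, was 2900 bp in HB and 2500, 2700, 2800 and 2600 bp in MES, HE, HP and MAC. These sites kept nearly the same width at all 5 stages. Whether these intervals mark regulatory DNA was not tested.

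The fourth widest member was of another kind. It lay at chr7:79796959-79799458, 4.62 kb upstream of Mesp1, which encodes a bHLH factor of early mesoderm, and measured 2500 bp in HB. In MES the same stretch held 2 sites of at most 900 bp, in HE 1 site of 1300 bp and in HP 1 site of 700 bp, and MAC had none. The site 34.02 kb downstream of Cxxc5 was 2400 bp in both MES and HB and 2000 bp in HE, with none later. The site 5.25 kb upstream of Sox4 was 2300 bp in HB, at most 700 bp in MES and HP, 1800 bp in HE and 1000 bp in MAC.

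The widest members of other combinations were shared with fewer stages. Among sites of HB only, the widest were 1800 bp (97.8 kb upstream of Tbx2), 1700 bp (594 kb upstream of Plxna2) and 1600 bp (188 kb upstream of Lpp). Among those shared with MES alone they lay near Grik3 (2300 bp in HB, at most 800 bp in MES), Lrrfip2 (2100 and at most 400 bp) and Cachd1 (2000 and 1000 bp). Among those shared with MES and HE they lay near Cxxc5, Ppp1r15b (2300 bp in HB, at most 600 bp in MES and 1300 bp in HE) and Ank2 (2200, 700 and 1100 bp). In each of these except Cxxc5 the site was narrower at the other stages than in HB, which was the stage the members were chosen in.

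**Figure D3:**
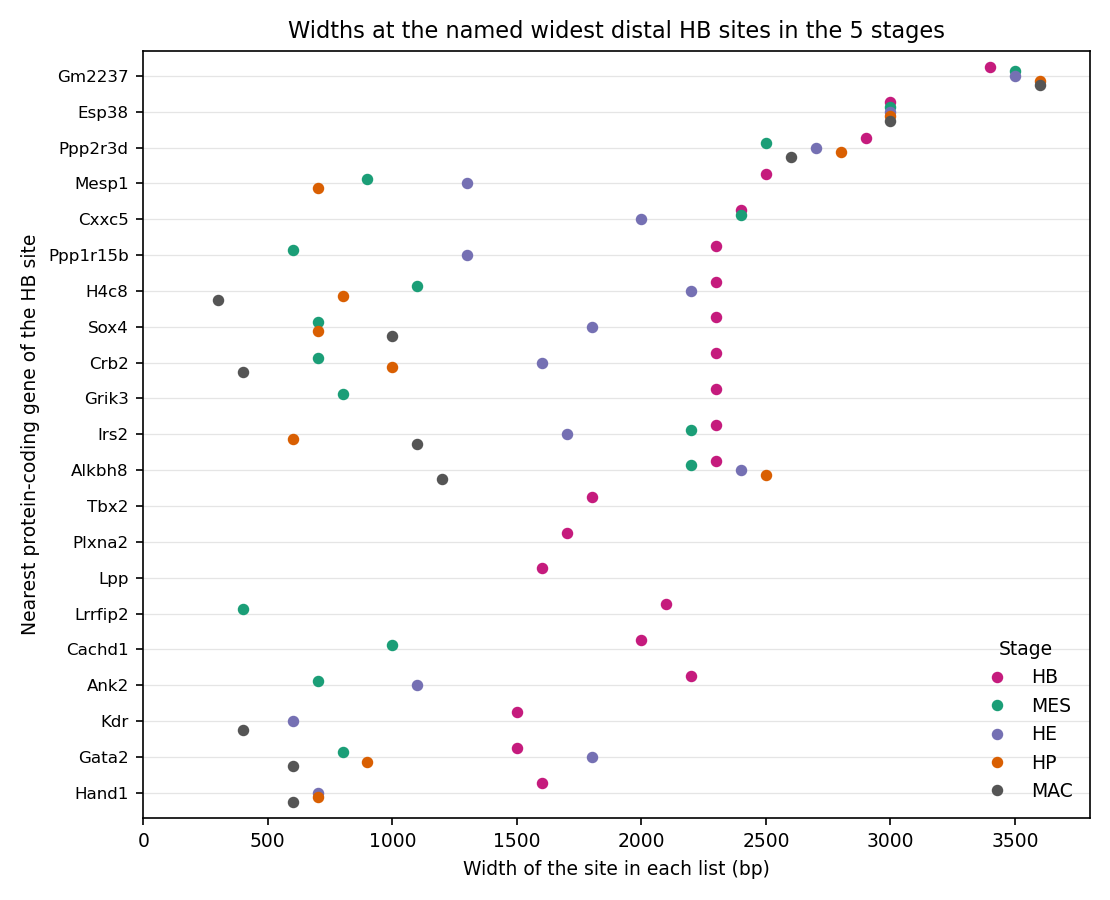
Width in bp of the site in each of the 5 lists for the named members, labelled by the nearest protein-coding gene, with the widest overlapping site drawn where a stage had several and no point where it had none. The sites near Gm2237, Esp38 and Ppp2r3d kept widths of 2500 to 3600 bp at all 5 stages, whereas the site near Mesp1 measured 2500 bp in HB and 1300 bp or less elsewhere.

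Repeat content was high in few members. The masked share was at least 80% in 6 of them (0.377%, against 0.162% of all distal HB sites). Of these, 4 lay within one stretch of 32.3 kb on chromosome 9, chr9:3004401-3036700, about 300 kb from Alkbh8, and all 4 had a site at every stage. The share of members overlapped by MES was 88.5% without sites of this kind.

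The distance to genes was much like that of all distal HB sites. The members' median distance to a protein-coding TSS was 24.1 kb, against 24.8 kb for all distal HB sites, and 55.9% of members (53.5 to 58.3) lay over 20 kb away, against 56.1%. Measured from the TSSs of all RefSeq transcripts, 33.3% of the members so defined (30.7 to 36.0) and 34.5% of distal HB sites lay that far. Their position relative to genes differed. Between genes lay 65.3% of members (62.9 to 67.6) against 57.5% of all distal HB sites, and in introns 30.5% (28.3 to 32.8) against 37.7%. Coding exons held 2.52% and untranslated exons 1.70%. The nearest gene had an HB site at its promoter for 71.7% of members (69.4 to 73.9) and for 72.5% of all distal HB sites, a difference within the interval.

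Many members lay at the start of genes that the rule did not count. The TSS of some RefSeq transcript of any kind, coding or not, curated or predicted, was within 2 kb of 381 members, or 24.0% (21.9 to 26.1), against 13.9% of all distal HB sites. A long non-coding RNA gene overlapped 21.6% of members against 16.7%. Wide sites meet a gene more easily by their length, and at the central 500 bp these shares were 19.9% (18.0 to 22.0) and 16.2%. When distal was defined by all of these TSSs, 75.3% of the remaining members were overlapped in HE, 54.5% in HP and 40.2% in MAC.

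Genes of short RNAs stood out, an observation made after the values were seen. An annotated tRNA gene lay within 58 members, or 3.65% (2.83 to 4.69), against 0.893% of all distal HB sites. At the central 500 bp the shares were 2.52% (1.85 to 3.41) and 0.724%. Of the 403 tRNA genes on the chromosomes used, 102 lay in a member. MES and HE had a site at all 58 of these members, HP at 56 and MAC at 52, and 50 (86.2%) were open at all 5 stages. Of the 58 narrower distal HB sites at tRNA genes, MES overlapped 42, HE 53, HP 45 and MAC 29, and 22 (37.9%) were open at all 5 stages. The largest number, 13, was on chromosome 13, where tRNA genes are interspersed with histone genes. There the site chr13:23517299-23519598, 12.6 kb upstream of the histone gene H4c8, measured 2300 bp in HB, at most 1100 bp in MES, 2200 bp in HE and 800 bp in HP. In MAC it measured 300 bp. It held the tRNA-Ser gene printed above. A gene of a spliceosomal or other small nuclear RNA (snRNA) lay within 19 members (1.19% against 0.2002%, or 0.818% against 0.139% at the central 500 bp), and all 19 were open at all 5 stages. Without the sites at tRNA and snRNA genes, 35.9% of members had a site at every stage, compared with 38.5% with them.

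The members were richer in CpG than the other distal sites. CpG-rich sites, with at least 50% G and C and an observed-to-expected CpG ratio of at least 0.6 in the central 500 bp, made up 21.9% of members (19.98 to 24.1) against 9.31% of all distal HB sites. Away from the TSSs of all RefSeq transcripts 14.1% of members (12.2 to 16.1) were CpG-rich, against 6.65% of all distal HB sites so defined. The median share of G and C was 54.0% against 52.0%. Of the 349 CpG-rich members, 179 (51.3%) lay within 2 kb of an annotated TSS of some kind, and 253 (72.5%) were open at all 5 stages, against 28.2% of the narrower CpG-rich sites. Of the 1241 other members, 28.9% were open at all 5 stages, against 7.999% of the narrower distal sites that were not CpG-rich. Among sites that were not CpG-rich, MES overlapped 85.8% of members (83.8 to 87.6) and 49.6% of narrower sites, and MAC 37.7% and 21.4%. Among CpG-rich sites, MES overlapped 98.3% of members (96.3 to 99.2) and 78.2% of narrower sites, and MAC 75.6% and 38.8%.

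The combinations of stages differed in CpG content and position. Members open at all 5 stages were CpG-rich in 41.3% of cases (37.5 to 45.3) and lay at a median of 16.3 kb from a TSS. Those shared with MES alone were CpG-rich in 2.68% (1.23 to 5.72) and lay at 37.6 kb. None of the 59 members of HB only was CpG-rich, which allows a share of up to 6.11% by the same interval, and their median distance was 45.9 kb. The narrower sites of the same 3 combinations followed the same order, with 22.4%, 4.98% and 2.19% CpG-rich and medians of 14.3, 28.7 and 35.5 kb, so the order was not particular to the widest sites.

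Motifs were counted on both strands of the central 500 bp, for 17 sets of letters. For 8 of them the share in narrower distal sites lay above the members' interval, for 8 within it and for 1 below it. The GATA letters AGATAA occurred in 26.0% of members (23.9 to 28.2) against 30.1% of all and 30.6% of narrower distal HB sites. The TEAD letters GGAATG occurred in 29.0% (26.8 to 31.3) against 34.3% of narrower sites, the E-box CAGATG in 30.8% against 37.3%, and the RUNX letters TGTGGT in 27.4% against 31.2%. The SP/KLF letters GGGCGGG, found in many CpG islands, were the 1 set more frequent in members, with 29.7% (27.6 to 32.0) against 16.6%. The T-box letters GGTGTGA occurred in 11.8% (10.3 to 13.4) against 12.4%, within the interval. These shares belong to the central 500 bp. Anywhere in the whole interval, which is longer in members, the GATA letters occurred in 50.6% of members against 36.4% of narrower sites. For TEAD these shares were 61.3% against 41.3%, for CAGATG 63.4% against 46.1% and for RUNX 59.6% against 39.9%. Matches per kb of whole interval remained lower in members for each of these.

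Within the 5 combinations examined, the pooled differences in TEAD and SP/KLF letters did not all remain. The narrower share of TEAD letters lay within the members' interval in each, with 25.2% of members against 25.7% in sites open at all 5 stages, 36.3% against 37.6% for MES, HE and HP, 33.8% against 33.0% for MES and HE, 32.1% against 33.8% for MES alone and 25.4% (16.1 to 37.8) against 37.0% for HB only. SP/KLF letters were more frequent in members in sites open at all 5 stages, with 45.3% (41.4 to 49.2) against 27.4%. In the other 4 the narrower share lay within the members' interval, with 30.8% against 27.5%, 21.2% against 20.1%, 15.2% against 17.7% and 3.39% against 10.7% in the same order. Divided by CpG content, SP/KLF letters were more frequent in members among CpG-rich sites, with 65.9% (60.8 to 70.7) against 50.5%. Among other sites they were too, with 19.6% (17.5 to 21.9) against 13.8%. TEAD letters occurred in 20.3% (16.5 to 24.9) against 20.2% of CpG-rich sites and in 31.4% (28.9 to 34.1) against 35.5% of the others.

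CTCF, the insulator factor, differed more at the central 500 bp. Its motif occurred there in 2.58% of members (1.91 to 3.48) and in 8.37% of narrower distal sites. Over whole intervals, which are longer in members, 7.17% of members and 8.96% of narrower sites held it. Per kb of whole interval there were 0.0558 matches in members and 0.131 in narrower sites. At the central 500 bp the share of members was below that of narrower sites in each of 5 combinations of stages. For HB only (0 of 59 members) the interval, up to 6.11%, included the 3.72% of narrower sites. In sites open at all 5 stages it was 4.08% of members (2.78 to 5.96) against 17.6% of narrower sites, and in those shared with MES alone 0.893% against 6.01%. It was found in CpG-rich and other sites alike, with 2.01% against 4.18% in the former and 2.74% against 8.71% in the latter.

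The GATA letters, less frequent in members over all sites, were more frequent in members in 3 of the 5 combinations examined. In sites shared with MES alone, 40.6% of members (34.4 to 47.2) held AGATAA, against 24.97% of the narrower sites of the same combination. In sites shared by MES, HE and HP, 32.5% of members (26.8 to 38.7) did, against 18.5%. For MES and HE the shares were 24.3% (19.1 to 30.4) and 18.7%. In sites open at all 5 stages, where the members were most numerous, 12.7% of members (10.3 to 15.6) did, against 15.7%, just outside the interval. The highest of these shares, 49.2% (36.8 to 61.6), was in the 59 members of HB only, against 41.8%, a value within the interval. Among sites that were not CpG-rich, 31.0% of members and 32.3% of narrower sites held AGATAA, a value within the members' interval. For the RUNX letters the same division gave 30.2% (27.7 to 32.8) and 32.5%, and among CpG-rich sites 17.2% and 16.3%, both within the members' interval. In sites shared with MES and HE, 31.5% of members (25.8 to 37.9) held the RUNX letters against 25.4% of narrower sites, and in sites open at all 5 stages 21.2% (18.2 to 24.7) against 27.1%. In the other 3 combinations examined the narrower share lay within the members' interval, with 29.5% against 30.1% for MES, HE and HP, 33.0% against 32.1% for MES alone and 33.9% against 32.6% for HB only.

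**Figure D4:**
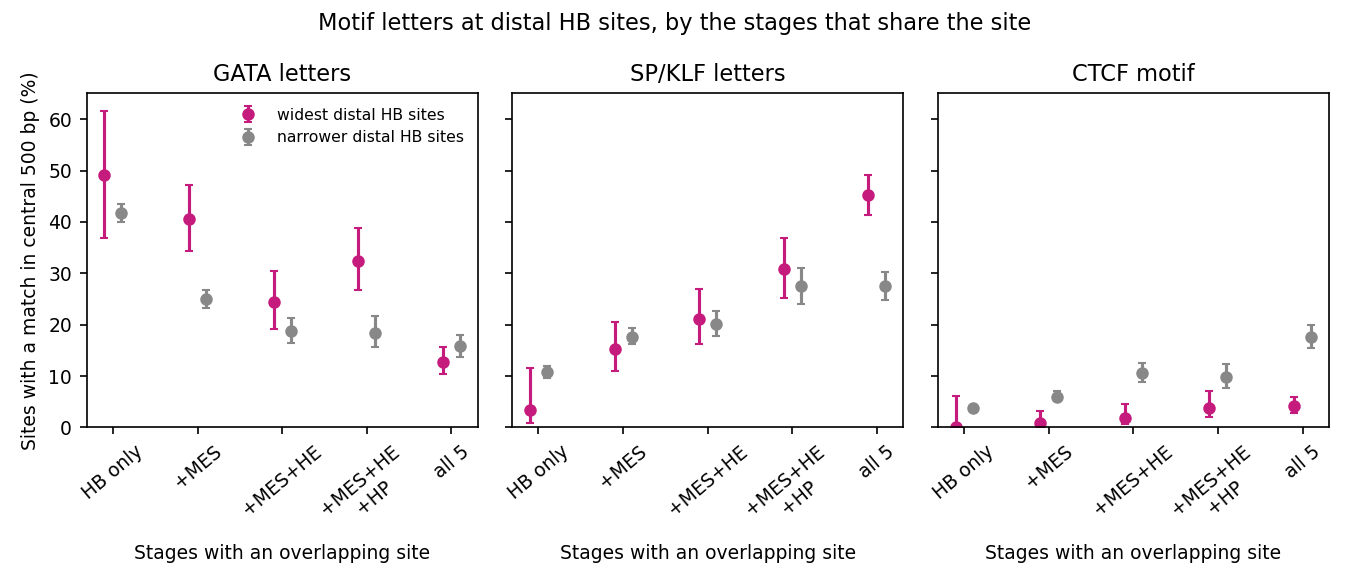
Share of sites (%) with the GATA letters, the SP/KLF letters or the CTCF motif in the central 500 bp, for the widest and the narrower distal HB sites in the 5 combinations of stages, with 95% Wilson intervals. GATA letters went from 49.2% of members of HB only to 12.7% of members open at all 5 stages, SP/KLF letters from 3.39% to 45.3% (narrower sites 10.7% and 27.4%), and CTCF was below the narrower sites in each combination.

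The nearest genes numbered 1291, of the 6487 genes nearest to any distal HB site. For 1080 of these genes there was 1 member, for 211 there were 2 or more, and for 59 there were 3 or more. Of the members, 32.1% thus shared their nearest gene with another. Members of 1 gene are not independent of each other. Taking the nearest gene body instead of the nearest TSS named the same gene for 77.0% of members.

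The highest number, 6, was found at Gse1 (chromosome 8), Galnt17 (chromosome 5) and Hes1 (chromosome 16). Hes1 encodes a repressor induced by Notch signals. Its 6 members, of 11 distal HB sites, were 1200 to 1400 bp wide and lay 5.04 to 226 kb from the gene. MES overlapped all 6, HE 4, HP 1 and MAC none. Upstream in the same interval between the genes, Opa1, which encodes a GTPase of mitochondrial fusion, was nearest to 5 more members, 151 to 235 kb away. MES overlapped all 5, HE 4, HP 3 and MAC 1. The widest, chr16:29799047-29801046, measured 2000 bp in HB, 1100 bp in MES, at most 800 bp in HE and 500 bp in HP.

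Stage profiles varied among the other genes with many members, each on few sites. At Galnt17, which encodes a glycosyltransferase, MES overlapped 5 of the 6 members, HE 2, HP 1 and MAC none. At Gse1 these counts were 6, 5, 5 and 3. Kdm6b, which encodes a demethylase of H3K27, had 4 members. Of these, chr11:69417407-69419306 was 1900 bp in HB and MES, and 1800 to 2200 bp at the later stages, whereas chr11:69436807-69438106 was 1300 bp in HB, 700 bp in MES and absent later. Chd2, which encodes a chromatin remodeller, had 4 members that were open at all 5 stages. All 4 distal HB sites of Creb3l1 and of the chemokine receptor gene Ccr1 were members, and the 4 at Ccr1 were open at all 5 stages with widths of 1000 to 1800 bp. At Nanos3, a gene of germ cells, 4 of 5 distal HB sites were members, and MAC overlapped 3 of them. In all, 14 genes had 4 members, taken in the order of their summed width to fill the 15 genes described. The rest of the 15 were Cibar2 and 1700001O22Rik with 5 members each and Alkbh8, Hunk, Prrc2b and 1700018B08Rik with 4 each. The 4 of Alkbh8 were the heavily masked sites described above.

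Members lay near other HB sites. The median gap to the next HB site was 8.10 kb, against 12.3 kb for narrower distal sites, and 61.9% of members (59.5 to 64.3) had one within a limit set between 12 and 13 kb, against 50.7%. When members with gaps up to that limit were joined, 1343 stood alone, 105 pairs formed, and there were 7 runs of 3 and 4 runs of 4. The runs of 4 were those near Alkbh8 (32.3 kb), Ccl28, Nanos3 (18.8 kb) and Ccr1 (12.9 kb). A run of 3 near Hunk, which encodes a kinase, spanned 19.8 kb, and there MES overlapped 2 of the sites and no later stage overlapped any.

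The members were read against 11 lists of genes of known roles, in which all symbols were matched. Over all genes 12.2% of distal HB sites were members. The interval of every list included that value. The share of members was 19.5% for primitive streak and mesoderm genes (15 of 77, interval 12.2 to 29.7), 18.5% for endothelial receptors and surface genes (12 of 65), 17.6% for Hippo pathway genes and TEAD targets (9 of 51) and 14.1% for cardiac and smooth muscle genes (11 of 78). It was 13.6% for Wnt genes (11 of 81), 11.2% for BMP and TGF-beta genes (11 of 98), 11.1% for pluripotency genes (6 of 54) and 8.77% for blood and hemangioblast transcription factors (5 of 57). In the lists of other cells it was 24.1% for macrophage (7 of 29, interval 12.2 to 42.1), 15.8% for endoderm (3 of 19), and 3 of 24 sites were members for neural genes.

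Over all protein-coding genes, 6.15% had a member, and 19.9% of those nearest to any distal HB site did. The blood transcription factors had members at Gata2, Runx1 and Cbfa2t3 among 28 genes (10.7%), of which 20 had a distal HB site. Tal1 and Lmo2, which had 2 distal HB sites each, had none that reached the threshold. The Gata2 member, chr6:88189330-88190829, lay 3.81 kb upstream of the gene and measured 1500 bp in HB, 800 bp in MES, and 1800 bp in HE. It was 900 bp wide at HP and 600 bp at MAC. Runx1, required for the formation of blood from endothelium, had 3 members among 9 distal HB sites. One in an intron, 47.7 kb downstream of the nearest Runx1 TSS (chr16:92777747-92778946, 1200 bp), had no counterpart at any other stage. Another, 171 kb upstream (1600 bp), had a MES site of 500 bp only, and the third, 181 kb upstream (1200 bp), was 1000 bp in MES and 600 bp in HE. Neither HP nor MAC overlapped any of them. The Cbfa2t3 member (1300 bp) was absent in MES and measured 1900 bp in HE, with 1500 bp at HP and 800 bp at MAC.

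Of the 23 endothelial genes, 16 had a distal HB site and 8 had members. The Kdr member, chr5:76007900-76009399, lay 30.2 kb upstream and measured 1500 bp in HB, 600 bp in HE and 400 bp in MAC, with none in MES and HP. Nrp2, a receptor of semaphorins and VEGF, had 3 members, of which the 2 shared with MES alone measured 1400 and 1300 bp in HB and 1100 bp each in MES. The Aplnr member, 4.66 kb upstream of this apelin receptor gene, was 1400 bp in HB and 1300 bp in MES and absent later. Of the members in this list, MES overlapped 8, HE 6, HP 4 and MAC 3 of 12, beside 88.6%, 78.8%, 59.2% and 46.0% of all members.

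The streak and mesoderm genes had members at 12 of 26 genes, 23 of which had a distal HB site. MES overlapped 14 of these 15 members, HE 6, HP 5 and MAC none, beside 88.6%, 78.8%, 59.2% and 46.0% of all members. Few MAC sites were found in most other lists too, with 1 of 9 members in the Hippo list, 2 of 11 in each of the Wnt, BMP and cardiac lists, and none in the neural and endoderm lists. Eomes, a T-box factor of the streak, had 2 members. The one 9.16 kb downstream was 1700 bp in HB and 2000 bp in MES with none later, and the one 88.4 kb upstream was 1500 bp in HB, 1200 bp in MES, 1500 bp in HE and 700 bp in HP. Pdgfra, Nodal, Lhx1, Wnt3 and Foxc1 each had a single member of 1200 or 1300 bp that was shared with MES alone. The 6 members near pluripotency genes were overlapped in MES at 5, in HE at 4, in HP at 2 and in MAC at none. Among them, the member 4.71 kb upstream of Nanog was 1300 bp in HB, 900 bp in MES and 1000 bp in HE.

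Cardiac and smooth muscle genes had 11 members, of which MES overlapped 4 and HE 8, beside 88.6% and 78.8% of all members. The members near Nkx2-5 (1500 bp in HB and 1700 bp in HE), Tbx3 (1300 and 1000 bp) and Tbx5 (1200 and 1400 bp), which encode factors of heart formation, were shared with HE alone. Tbx2 had 3 members, of which 2 had no counterpart at any other stage.

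In the signalling lists, Smad6 had 3 members in and near the gene, all overlapped in MES, HE and HP. The widest, chr9:64016901-64019100 in an intron, was 2200 bp in HB, at most 1000 bp in MES, 1700 bp in HE and 700 bp in HP. Bmp4 had 2 members with a site at MES, HE and HP and none at MAC. Over the BMP and TGF-beta list, MES, HE and HP each overlapped 9 of 11 members and MAC 2. Of the Wnt members, MES overlapped 10 of 11, HE 5, HP 2 and MAC 2. The shares of all members overlapped at these stages were 88.6%, 78.8%, 59.2% and 46.0%. The Axin2 member 9.49 kb upstream of this feedback inhibitor was shared with MES alone (1300 bp in HB and 700 bp in MES). A second Axin2 member, 91.5 kb downstream and also 1300 bp wide in HB, was open at all 5 stages, with 1200 to 1500 bp at the others. Tead1, which encodes a partner of the Hippo effector YAP, had 3 members in its introns among 13 distal HB sites. The widest, 101 kb downstream of the TSS, was 1800 bp in HB and 1300 bp in HE and absent at the other stages.

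Among macrophage genes, Irf8 and Fcgr1 had members. The 4 nearest to Irf8, a factor of macrophage formation, lay 89.5 to 157 kb downstream of it, and MAC overlapped 1 of them. The 3 nearest to Fcgr1 were open at all 5 stages, with a U1 snRNA gene in one of them and a tRNA-Val gene in another. The nearest gene is an assignment by distance and was not checked by any other measure.

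The members were spread unevenly over chromosomes. Chromosome 8 held 176 members, 11.1% of them, or 1.36 per Mb, against 0.419 to 1.06 per Mb (median 0.557) on the other autosomes. It has 7.84 protein-coding genes per Mb, near the median of 7.39 of the others, and so had 17.4 members per 100 genes against 5.12 to 10.4. Distal HB sites of any width were dense there as well, at 8.97 per Mb, and 15.2% of the distal HB sites of chromosome 8 were members, against 10.9 to 13.5 on the other autosomes. The other lists were dense there too, with 7.60 distal sites per Mb in MES (highest other autosome 7.003), 12.7 in HE (14.3), 6.27 in HP (5.10) and 15.4 in MAC (15.1). Copy number and read depth by chromosome were not in the files used here, and their part in this was not tested. Without chromosome 8 the overlap of members was 88.5% in MES, 78.1% in HE, 58.6% in HP and 46.4% in MAC. Gse1, Cibar2, Nanos3, Irf8 and 1700018B08Rik are on this chromosome, so their counts of members rest on it. Of the list genes with members, Cdh5, Nrp1, Efnb2, Cbfa2t3, Hand2, Smad1, Nkd1 and Sox1 are on it too. The shares of the gene lists were not counted without it.

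**Figure D5:**
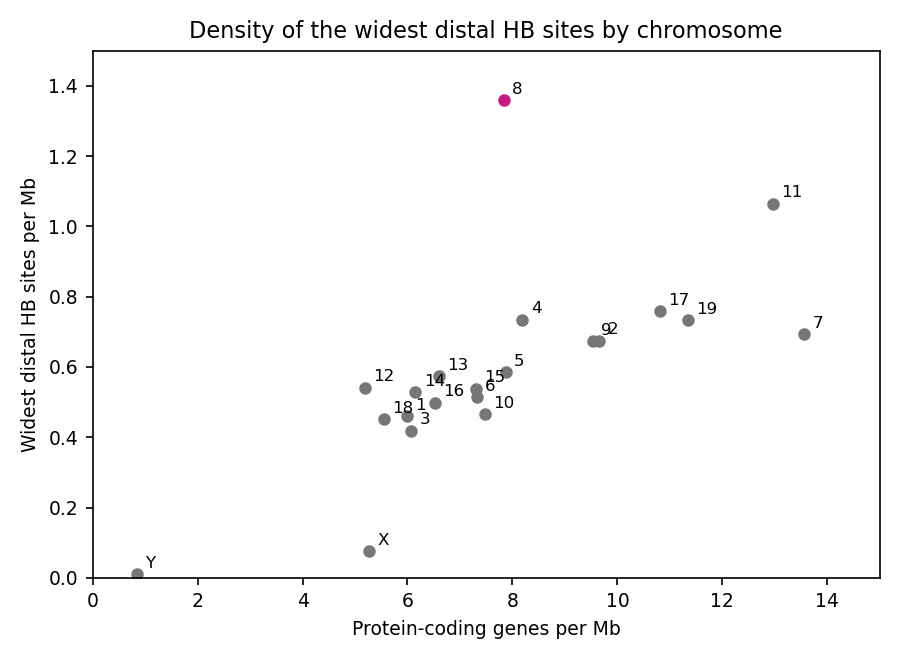
Widest distal HB sites per Mb against protein-coding genes per Mb, 1 point per chromosome labelled by its name. Chromosome 8, in colour, held 1.36 members per Mb with 7.84 genes per Mb, above chromosome 11 with 1.06 members and 13.0 genes per Mb.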

How the data were processed

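DNaseI-seq had been carried out on 5 sorted populations, with 1 deposited list each. Per the study's methods and processing notes, the authors trimmed reads with CutAdapt, aligned them to mm10 with Bowtie, kept unique reads, took out duplicates (Picard) and ran DFilter, with bins of 100 bp, to find sites. HOMER is named for later steps. The deposited files hold start and end positions, with no count, score or depth, so the precision of a site is unknown. Tool versions are not given in the sources used here.

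From the intervals, widths, overlaps, distances to TSSs of curated protein-coding RefSeq transcripts (21000 genes, GRCm38.p6) and letter matches were computed with Python 3.11.15, numpy 2.4.6 and pysam 0.24.0, after the steps were tested on simulated intervals. The members, gene lists and motifs were chosen with earlier results of these data known. Named are the 10 widest members with ties (12), the 3 widest of 4 combinations of stages, the 15 genes with the most members, the longest runs and list genes with members. Genes of short RNAs, CpG division of the motifs, megabases and chromosome 8 were looked at after values were seen. Alternatives changed the TSS set, distance, percentile, overlap rule and list length.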

Additional observations from a re-analysis of the deposited data

How the results depend on the processing

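With 1 list per stage, no replicate could be left out. No paired analysis was possible because each stage had 1 list. The members' share was above that of the narrower sites for each of the 4 stages, and for all 4 together, under every alternative run. The shares themselves moved, in the order MES, HE, HP, MAC, none and all 4 stages. At the 80th percentile of width (3422 members) they were 81.9, 71.2, 50.0, 38.2, 7.31 and 30.04%, and at the 95th (997 members) 91.0, 82.6, 62.5, 50.6, 2.71 and 43.8%. Over 20 kb from a TSS (889 members) they were 84.8, 73.7, 51.6, 38.9, 5.06 and 30.5%. At the central 500 bp they were 84.5, 76.2, 55.3, 39.2, 5.41 and 33.5%, and with 50% of the HB site covered 76.4, 74.9, 48.3, 30.3, 9.50 and 26.2%.

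The lists differ in length. Cut to the 17734 widest sites, MES, HE and MAC overlapped 84.9, 63.2 and 34.4%, with 6.92% at none and 29.1% at all 4. Thinned to that length with 1 seeded draw, they overlapped 71.1, 40.8 and 21.8%, with 9.31% at none and 7.30% at all 4, so HE fell below HP (59.2%). With TSSs of any RefSeq transcript, an alternative added after seeing the data, HE, HP, MAC and all 4 gave 75.3, 54.5, 40.2 and 32.8%. Without tRNA and snRNA genes, also added, all 4 gave 35.9%. The CpG-rich share of members moved from 21.9% to 14.1% with TSSs of any transcript, and the share over 20 kb away from 55.9% to 33.3%. Predicted mRNAs, a 5 kb limit, a longer minimum overlap, leaving out chromosome 8 and leaving out masked sites kept every overlap share within its interval. No motif whose intervals were apart reversed between members and narrower sites with the central 200 bp or with matches per kb of whole intervals. The share of sites with a match anywhere in the whole interval was higher in members for the GATA, TEAD, CAGATG and RUNX letters. The lists give no read depth, so how depth limits the widths is unknown.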

Other observations

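RefSeq records tested enhancers as features of their own. Such a record overlapped 52 members, or 3.27% (interval 2.50 to 4.26), against 1.60% of all distal HB sites. At the central 500 bp, counted because wide sites meet more features, the shares were 3.27% and 1.59%. MES overlapped 44 of the 52, HE 46, HP 37 and MAC 19, and 17 (32.7%) were open at all 5 stages, beside 88.6%, 78.8%, 59.2%, 46.0% and 38.5% of all members. They include members near Gata2, Bmp4, Nanog, Smad6, Nkx2-5, Efnb2, Sall1, Fgf10 and Hmga2. The records come from assays in other tissues and cells, and whether these elements act in HB was not tested.

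The densest megabase was on chromosome 8, from 120 to 121 Mb, with 16 members among 62 distal HB sites, nearest to 4 genes. The 3 megabases from 120 Mb on held 35 members among 159 distal HB sites, nearest to 14 genes. They include those of Gse1, Cibar2, 1700018B08Rik and Irf8. On chromosome 11, the megabase from 69 to 70 Mb held 12 members, with Kdm6b, Aurkb and the clock gene Per1 among their 8 nearest genes.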
